A study of Mus musculus with 24 samples.

Results

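The comparison set clone 21 of the recombination d3 against clone 12 of the same recombination, with 2 libraries per clone, 4 of the 24 libraries of the series, chosen by the clone named in the title of each library. The cells were mouse embryonic stem cells of the line F121/9, a female F1 hybrid of the 129/Sv and CAST/EiJ strains, grown on gelatin in 2i+LIF medium, a serum-free medium with inhibitors of MEK and GSK-3 that holds stem cells in the naive state. The labels give the genotype of both clones as recombined and do not expand the name d3, and the parental d3 line, with the genotype control, is given for orientation. Each clone is 1 clone, so a difference between them is a difference between 2 clonal lines, and the duplicates measure the spread within a line. Poly(A) RNA was read from a single end over 75 bases. Every library has 2 columns of counts, 1 for the 129S1 allele and 1 for the CAST allele, and their sum is called the total count. Libraries were paired by replicate number, and changes are given throughout as clone 21 minus clone 12.

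In an F1 hybrid, each autosome is present once from each strain, and single-base differences between the strains allow reads to be assigned to an allele. Genes differ in how strongly each strain's copy is transcribed, so a gene can be read almost wholly from 1 of its alleles. Many genes also have processed pseudogenes, copies of their messenger RNA that were inserted elsewhere in the genome and keep a nearly identical sequence.

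Total counts were 12618992 and 11632870 in clone 21 (replicates 1 and 2), 15581094 and 11587552 in clone 12, and 12263924 and 10383315 in the parental line. A count of 3, taken as the smallest detected, was worth 0.201 to 0.275 CPM, the count scaled to sequencing depth, in the 4 clone libraries. The libraries grouped by replicate number and not by clone. Chi-square per degree of freedom over genes was 2.84 between the replicate 1 libraries of the clones and 16.4 between the replicate 2 libraries. It was 23.0 between the replicates of clone 21 and 33.9 between those of clone 12. Libraries that differed in both gave 30.1 (clone 21 replicate 1 with clone 12 replicate 2) and 25.9 (clone 21 replicate 2 with clone 12 replicate 1). Naive pluripotency genes were abundant in all 4 libraries: the factor Nanog was at 1812 and 1938 CPM in clone 21 and 1820 and 1903 CPM in clone 12.

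The clones differed on chromosome 14 in the allele that was read. The 129S1 allele held 26.5% (95% Wilson interval 26.4 to 26.7) and 24.9% (24.8 to 25.1) of the chromosome 14 counts in clone 21, against 54.6% and 54.0% in clone 12 and 54.6% and 53.8% in the parental line. Over the 476 chromosome 14 genes whose 129S1 share lay between 20% and 80% in the 18 libraries outside d3, the share was 7.95% and 7.54% in clone 21 and 50.4% and 49.9% in clone 12. The clone 21 libraries thus lay far below all other d3 libraries, with no overlap. Chromosome 14 as a whole kept its share of all counts, at 3.17% and 3.19% in clone 21 and 3.16% and 3.11% in clone 12. On the other autosomes the 129S1 share was between 41.2% and 55.7%, and the means of the clones differed by at most 0.849 percentage points. These intervals cover counting error only. The number of copies of chromosome 14 in the cells was not analysed here. In bulk libraries such as these, fewer cells that read an allele and less RNA from it in each cell cannot be told apart.

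**Figure D1:**
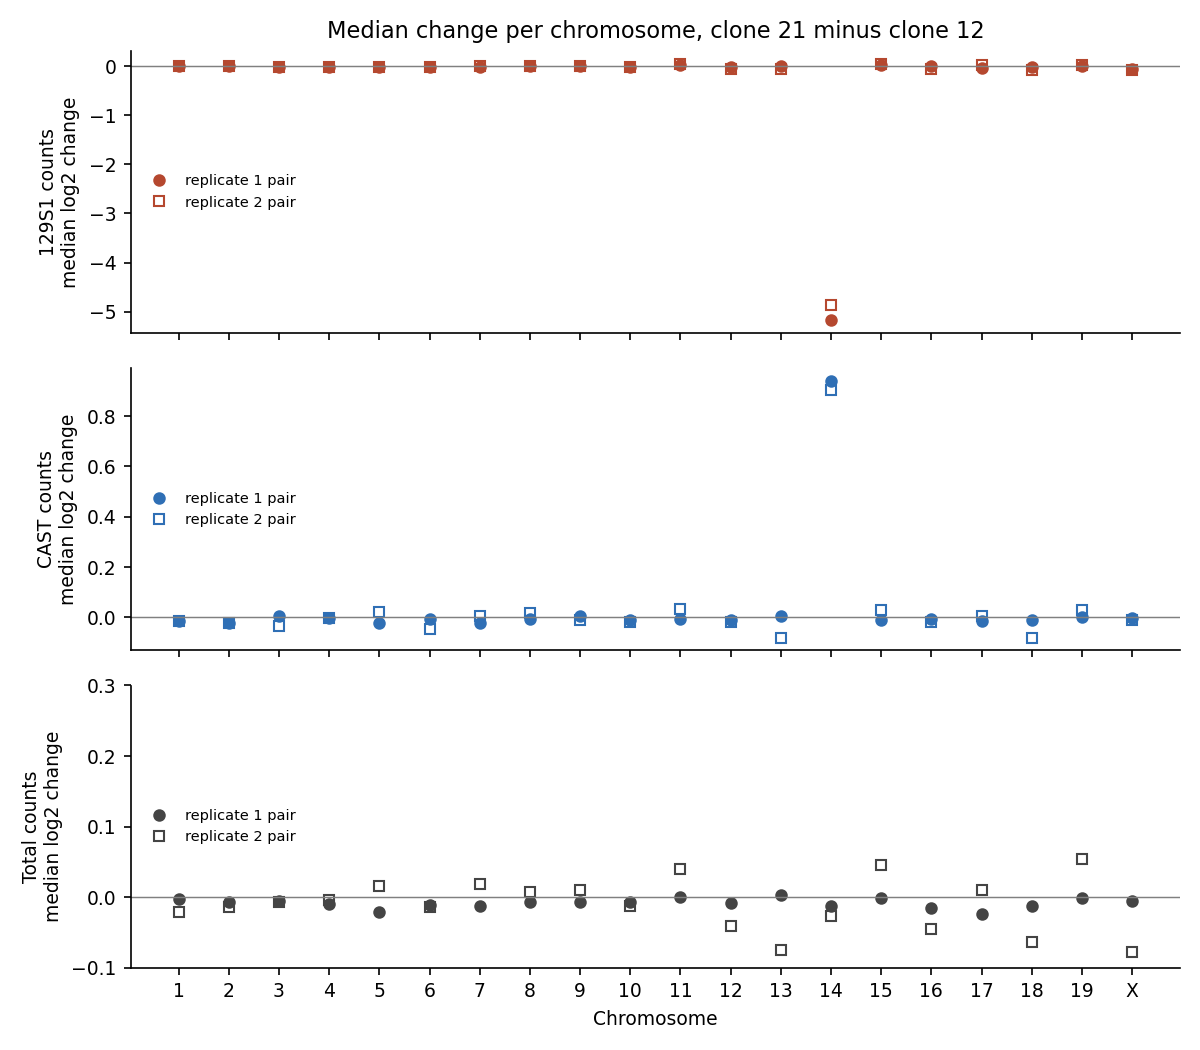
Median log2 change per chromosome (clone 21 minus clone 12) for 129S1, CAST and total counts, with 1 point for each replicate pair; total counts have their own narrower axis. Chromosome 14 stands apart in the 129S1 and CAST panels and lies among the other chromosomes in the total panel.

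Per gene, the median log2 change of 129S1 counts on chromosome 14 was -5.02 ± 0.23 (SD of the medians of n = 2 replicate pairs, 435 genes). The median change of CAST counts was 0.92 ± 0.02 and that of total counts -0.02 ± 0.01 (570 genes). On the 19 other chromosomes the medians lay between -0.063 and 0.042 for 129S1 counts, -0.045 and 0.015 for CAST counts and -0.041 and 0.027 for total counts. The change spanned the chromosome. Cut into stretches 10 Mb long, it gave 12 stretches that held 5 or more genes tested for the allelic ratio (129S1 to CAST), and the median ratio change in them was between -7.73 and -4.72. The first gene of the chromosome tested for the ratio, Gm3383, was not called (log2 change -0.74 ± 0.44 (SE)), while the last, Tmtc4, was (-8.59 ± 0.83). The total counts of chromosome 14 genes were more dispersed than those of any of the 19 other chromosomes, with an interquartile range of 0.42 against 0.23 to 0.33.

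The allelic ratio was tested with edgeR (quasi-likelihood) at a p under 0.05 after Benjamini-Hochberg adjustment over all genes, and 3.26% of all genes were called. On chromosome 14 it was called in 346 of 382 chromosome 14 genes (90.6% called), all with a lower 129S1 part, and in 6 of 10413 genes elsewhere (0.0576%). Of all genes, 2.84% were called in 129S1 counts and 1.95% in CAST counts. The 129S1 counts fell in 382 of 501 chromosome 14 genes (76.2% called), with no call in the other direction, and 11 of 13342 genes elsewhere were called (0.0824%). CAST counts rose in 261 of 488 chromosome 14 genes (53.5% called), again all in 1 direction, and 12 of 13500 elsewhere were called (0.0889%). With no replicate block the CAST calls on chromosome 14 numbered 54, in a fit of the 6 d3 libraries alone 0, and without clone 21 replicate 1 or 2 they were 148 or 124. Leaving out clone 12 replicate 1 raised the calls outside chromosome 14 to 281 for 129S1, 189 for CAST and 99 for the ratio.

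**Figure D2:**
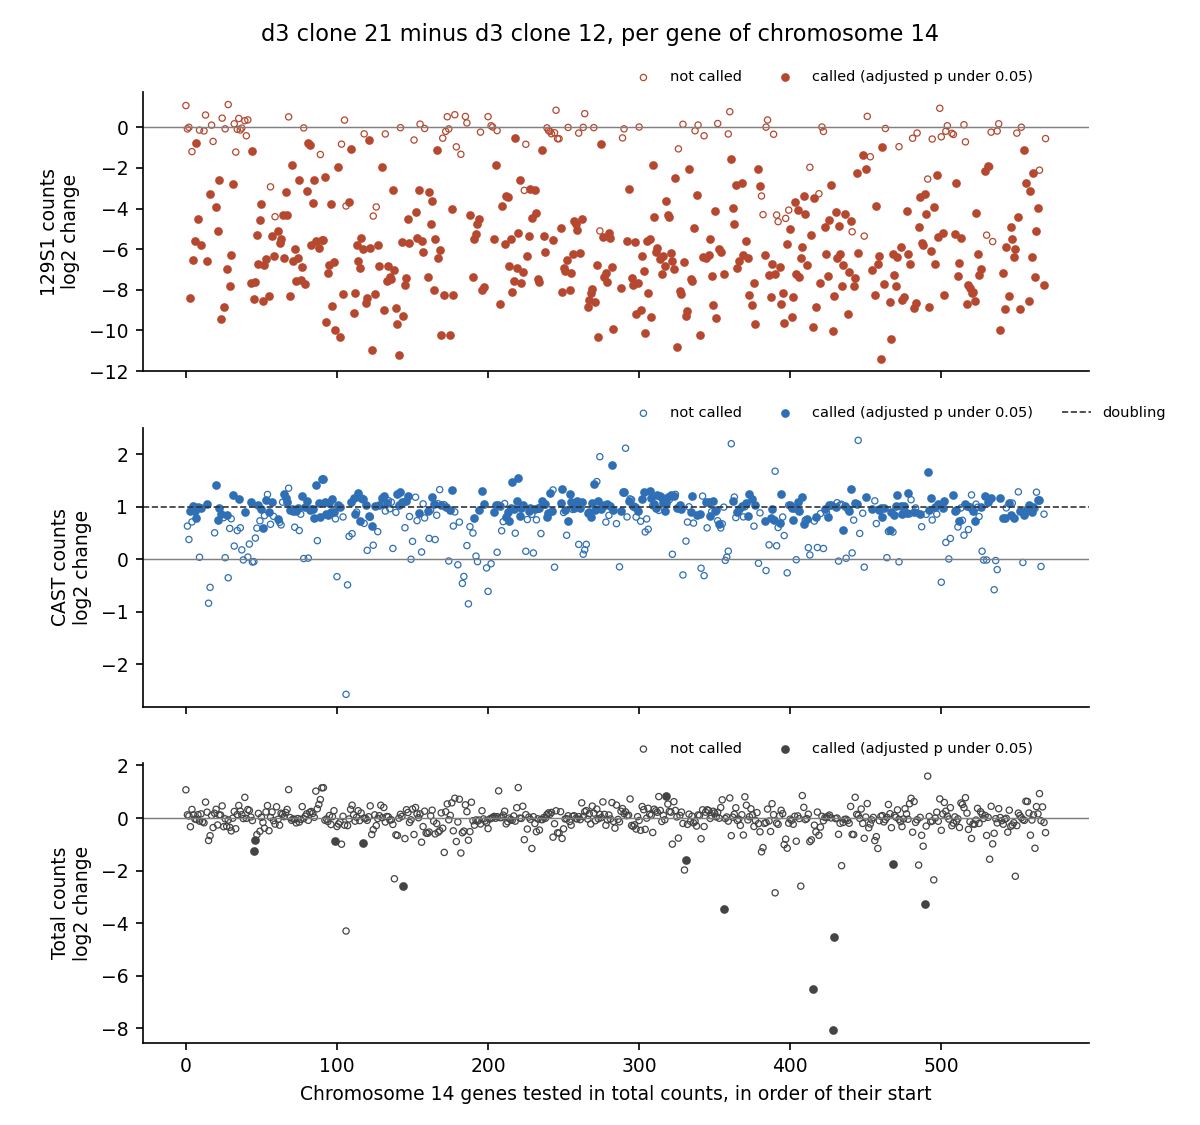
Log2 change (clone 21 minus clone 12) of 129S1, CAST and total counts for each chromosome 14 gene, in the order of their starts; filled points were called by edgeR's quasi-likelihood test. Most 129S1 points lie well below 0 along the whole chromosome, most CAST points gather at the dashed line of a doubling, and most total points lie at 0.

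Single genes showed the same exchange. Kat6b, a histone acetyltransferase, had 10 and 15 counts from the 129S1 allele in clone 21 and 2516 and 2645 in clone 12. Its CAST counts were 3710 and 4213 in clone 21 and 2286 and 2210 in clone 12. The alleles moved in opposite directions with no overlap between the clones, and the total count was at 337 ± 41.0 CPM (SD, n = 2) in clone 21 and 383 ± 86.4 in clone 12, a log2 change of -0.18 ± 0.18 (SE) that was not called. Ncoa4, a receptor that delivers ferritin to autophagy, went from 2079 and 1332 129S1 counts in clone 12 to 0 and 1 in clone 21, while its CAST counts went from 1994 and 1242 to 3268 and 2724. Its total was at 253 ± 24.5 CPM in clone 21 and 254 ± 26.6 in clone 12.

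Summed over the alleles, few genes differed. Of 16253 genes, 17 were called (0.105%), 1 higher and 16 lower, and 548 had an unadjusted p under 0.05. Of the 17, 13 were on chromosome 14 (2.28% of 570 genes) and 4 elsewhere (0.0255% of 15683 genes). On the chromosome 2.11% of genes fell and 0.175% rose. The libraries of the clones did not overlap in any of the 17, which were called on these same libraries. The share of all genes without overlap was not computed, so this adds no support. Without the replicate block 8 were called (0.0492%), all of them among the 17, with 6 on chromosome 14 (1.05%) and 2 elsewhere (0.0128%). Nefm, Rcbtb1, Ephx2, Nefl, Rnf17 and Gm6012 were called with each of the 4 libraries left out in turn, and Gm48283 in no such fit. The small number elsewhere was not kept in the fit without clone 12 replicate 1, where calls outside chromosome 14 were far more numerous. That fit leaves clone 12 with 1 library, and the cause of the rise was not tested.

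On chromosome 14 the largest falls in total counts were of genes read almost wholly from the 129S1 allele. Most genes with such shares did not fall in this way. Genes with at least 20 total counts on average were grouped by their 129S1 share outside d3. At 95% or more, 5 of 24 genes lost over 3 log2 units of 129S1 counts, and the median total change was -0.08. At 80% to 95%, 7 of 26 did, and the median total change was -0.10. Nefm and Nefl encode the medium and light neurofilament subunits, cytoskeletal proteins of axons. They are on opposite strands, and Nefl lies within the annotated span of Nefm (chr14:68082590-68124846 for Nefm and chr14:68083863-68089095 for Nefl, GRCm38). Whether the counting used the strand is not given in the sources used here, so reads in the shared stretch cannot be assigned with certainty. Nefm was at 0.579 and 0.173 CPM in clone 21 and at 134 and 77.6 CPM in clone 12, with 111 and 82.1 CPM in the parental line. Clone 21 held 9 counts against 2849 in clone 12, which was 290-fold lower by normalised counts (95% counting interval 152 to 634), with an edgeR adjusted p of 2.23e-11. In the 18 libraries outside d3, 98.9% of Nefm counts came from the 129S1 allele. Nefl was at 1.08 and 0.433 CPM in clone 21 and 23.4 and 12.6 CPM in clone 12 (log2 change -4.53 ± 0.32, edgeR adjusted p = 3.46e-07), and its 129S1 share elsewhere was 96.7%.

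Ephx2, the soluble epoxide hydrolase of lipid epoxides (chr14:66084374-66124500), had 2 and 1 counts in clone 21 and 247 and 100 in clone 12, a ratio of 106 (counting interval 35.9 to 516, edgeR adjusted p = 6.45e-08). No 129S1 count was left in clone 21, against 346 in clone 12, which was at least 106-fold lower (with a floor of 3 counts over the 2 libraries), and its 129S1 share outside d3 was 99.8%. Rcbtb1 (chr14:59201209-59237265), which encodes a protein with RCC1 repeats and a BTB domain, was at 3.31 and 4.15 CPM in clone 21 and at 40.0 and 42.6 CPM in clone 12 (log2 change -3.47 ± 0.16, edgeR adjusted p = 6.33e-10). Its CAST counts were 39 and 43 in clone 21 and 34 and 14 in clone 12, a change of 0.99 ± 0.44 that was not called, while the 129S1 counts went from 562 and 451 to 1 and 5.

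**Figure D3:**
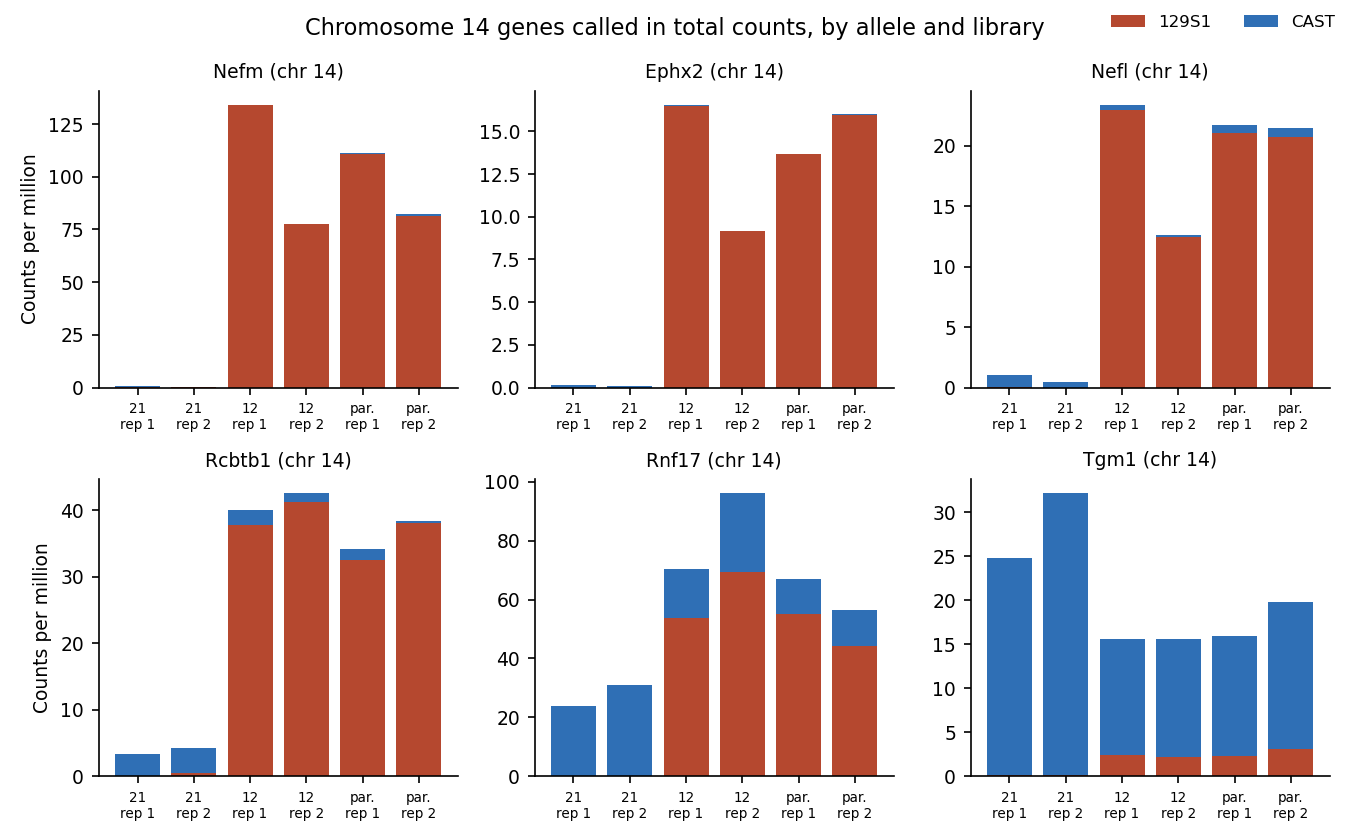
CPM from the 129S1 and CAST alleles, stacked, in the 6 d3 libraries (clones 21 and 12 and the parental line) for 6 chromosome 14 genes called in total counts; each panel has its own axis from 0. The 129S1 part is nearly gone from both clone 21 libraries in every panel, and only Tgm1 has a higher total there.

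The other calls on the chromosome were smaller or of lowly counted genes. Rnf17, a Tudor-domain protein of germ cells (129S1 share outside d3 80.7%), was at 23.8 and 30.9 CPM in clone 21 and at 70.5 and 96.2 CPM in clone 12, with a log2 change of -1.60 ± 0.16 (edgeR adjusted p = 5.21e-05). Lcp1, the actin-bundling protein plastin-2, changed by -1.76 ± 0.29, the kinase Nek4 by -0.93 ± 0.17 and Arhgef3, a guanine nucleotide exchange factor, by -0.86 ± 0.15. The calls of Lcp1, Nek4, Arhgef3, Gng2 and Tgm1 were lost in the fits without clone 21 replicate 1, clone 21 replicate 2 or clone 12 replicate 2. The noncoding genes Gm17210 (-2.57 ± 0.38) and Gm19098 (-3.28 ± 0.50) fell as well, the first losing its call without clone 21 replicate 2 and the second without either clone 21 replicate. Tgm1, a transglutaminase that cross-links proteins of the epidermal barrier, was the 1 gene that rose: it was at 24.8 and 32.2 CPM in clone 21 and at 15.6 CPM in each library of clone 12 (log2 change 0.85 ± 0.15, edgeR adjusted p = 0.0232). Its 129S1 share outside d3 was 18.8%, whereas all 12 genes that fell on chromosome 14 had a share over 50%.

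Gng2 and Gm48283 fell further than their allelic shares alone would give, with differences of -0.74 and -1.13 log2 units from the value computed in the next paragraph. They were not alone in this. Among the called genes Nefm (-2.61) and Nefl (-0.64) also lay below theirs, as did genes that were not called, such as Tnfsf11 (-1.69). Gng2, a G protein gamma subunit (chr14:19872559-19977627), was at 25.2 and 27.6 CPM in clone 21, at 44.5 and 50.4 CPM in clone 12 and at 31.8 and 34.9 CPM in the parental line. Its log2 change was -0.84 ± 0.13 (edgeR adjusted p = 0.00724), although its 129S1 share outside d3 was 53.5%. The CAST counts of Gng2 changed by 0.40 ± 0.15, which was not called against 0 or against a doubling (edgeR adjusted p = 0.481 and 0.224). Gm48283, a noncoding gene on the other strand that overlaps the end of Gng2 (chr14:19866980-19873455), had 0 and 0 129S1 counts in clone 21 and 71 and 54 in clone 12. Its CAST counts were 35 and 49 in clone 21 and 45 and 47 in clone 12, and its total changed by -1.27 ± 0.22. Whether the counting used the strand is not given in the sources used here, so reads in the shared stretch cannot be assigned to either gene with certainty.

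The change of a gene's total was set against the allelic share measured elsewhere. If 129S1 counts went to 0 and CAST counts doubled, the log2 change of the total would equal log2 of 2 times the CAST share, here taken from the 18 libraries outside d3. Across the 570 chromosome 14 genes tested, Pearson's r between this value and the observed change was 0.307 and Spearman's rank coefficient 0.416. On the 19 other chromosomes r lay between -0.0713 and 0.0594 and the rank coefficient between -0.0527 and 0.0550. Across the 382 chromosome 14 genes whose 129S1 counts fell, a group chosen on the same contrast, r was 0.832 and the rank coefficient 0.627. Across the 435 genes with a 129S1 share of 20% to 80%, not chosen on this contrast, r was 0.489 and the rank coefficient 0.493. On the other chromosomes r for such genes lay between -0.0961 and 0.104. The slope of the observed change on the computed value was 0.118 for the 570 genes, 0.754 for the 382 and 0.569 for the 435. Equal values would give a slope of 1. Of the 382 genes, 333 (87.2%) lay within 0.5 log2 units of the computed value, and the median difference was -0.005. Many computed values were themselves near 0, so a gene whose total did not change could also lie within 0.5. This percentage therefore does not measure how well the share foretells the change. Genes of 1 library share its depth and are not independent replicates, so these correlations are descriptions.

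**Figure D4:**
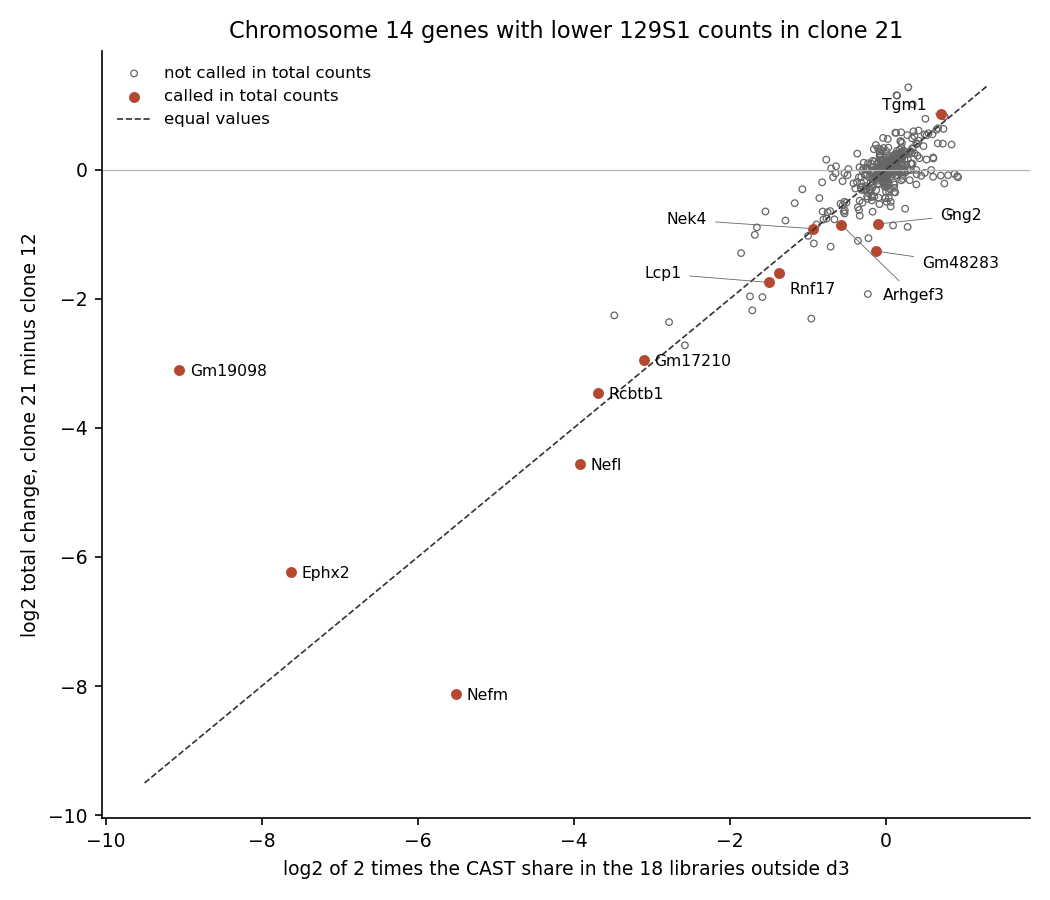
Observed log2 change of the total count (clone 21 minus clone 12, from log2 CPM with a prior of 0.5 counts) against log2 of 2 times the CAST share in the 18 libraries outside d3, for the 382 chromosome 14 genes with lower 129S1 counts in clone 21. Most genes lie near the dashed line of equal values, with Nefm below it and Gm19098 and Ephx2 above it.

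Those 382 genes were chosen for lower 129S1 counts in this contrast, so a low share in clone 21 follows in part from the choice. Over the 476 genes chosen by their share outside d3, the clone 21 share was 7.95% and 7.54%. In the 382 genes the 129S1 share left in clone 21 had a median of 0.356%, against 50.4% in clone 12. It was under 1% in 255 genes, and 109 had 0 129S1 counts in both clone 21 libraries. The highest was 100%, in the processed pseudogene Gm19098, which was read from the 129S1 column alone in every d3 library and had 5 and 6 counts in clone 21 against 84 and 36 in clone 12. For 22 of the 382 genes the computed value was a fall of at least 1 log2 unit, and 8 of these were called in total counts. The 14 others changed by -2.72 to -0.30 on the log2 CPM scale. The genes named next were picked after their values were seen. The DNA glycosylase gene Neil2 changed by -2.72 for a computed -2.58 and Loxl2, a lysyl oxidase relative, by -1.98 for -1.58. The methyltransferase relative Setdb2 changed by -0.65 for -1.55 and Rnase4, a ribonuclease, by -0.30 for -1.07. Counts were low for Rnase4 (6 and 6 in clone 21, 21 and 3 in clone 12), whose replicate pairs changed by -1.42 and 0.81. Neil2 had 2 and 5 counts in clone 21 and 21 and 32 in clone 12. For 24 genes the computed value was a rise of at least 0.5, and of these Tgm1 was called. Their observed median was 0.269, with values from -0.671 to 0.854.

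Most CAST counts did not differ detectably from a doubling. Of 488 chromosome 14 genes, 30 were called, all below it (6.15% called, against 0.257% of all genes and 0.0444% of genes elsewhere, which were tested against no change). Their CAST counts changed by -0.83 to 0.40 (log2 CPM), with a median of -0.05. They fell into groups by their 129S1 counts. In 8 genes the 129S1 counts were too low to be tested. The processed pseudogene Gm7591, for example, had 229 and 250 CAST counts in clone 21 and 270 and 387 in clone 12, with 3 to 5 129S1 counts in each library. In 15 genes 129S1 counts were tested and lay above a fall of 1 log2 unit. Tpt1, which encodes a translationally controlled tumour protein, had 13237 and 11483 CAST counts in clone 21 and 17772 and 10615 in clone 12, with 15 and 16 129S1 counts in clone 21 and 44 and 24 in clone 12. The ribosomal protein gene Rps24, for example, had 1218 and 1323 129S1 counts in clone 21 and 2840 and 1821 in clone 12. Without clone 21 replicate 2, and in the fit of the 6 d3 libraries, 0 chromosome 14 genes were called below a doubling, and with no replicate block 5 were.

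In the remaining genes the 129S1 allele fell without a matching rise of CAST. In 5 of the 30, 129S1 counts fell by over 3 log2 units. The GTP-binding nucleolar protein Gnl3 had 868 and 720 129S1 counts in clone 12 and 3 and 1 in clone 21, while its CAST counts were 5018 and 3314 in clone 12 and 4631 and 3882 in clone 21. Gnpnat1, an enzyme of amino sugar synthesis, and Styx, a catalytically inactive phosphatase relative, showed the same pattern, with CAST changes of -0.05 and 0.06. Gnpnat1 and Styx overlap in the annotation on opposite strands. These 3 genes had 129S1 shares of 5.31% to 13.3% outside d3, so their totals changed little (-0.12 to -0.07). Glud1, the glutamate dehydrogenase of mitochondria, differed from them with a share of 52.9%: its 129S1 counts fell from 3235 and 2197 to 321 and 220, its CAST counts changed by 0.40 ± 0.12, and its total went from 422 and 387 CPM to 315 and 246 CPM (log2 change -0.53, not called, edgeR adjusted p = 0.202). The largest deviations by the naming rule were those of Gm49355 and 3830406C13Rik, which overlap, and of the processed pseudogenes Gm15516, Gm7591 and Gm8971, with CAST changes between -0.84 and -0.31. Of the 30 genes, 23 had a near-identical copy elsewhere in the genome, as had 132 of the 458 that were not called.

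In a further group of genes, 129S1 counts fell little or not at all. The 391 chromosome 14 genes with a 129S1 share of 20% to 80% outside d3 that were tested in both 129S1 and CAST counts were taken. Of these, 321 (82.1%) lost over 3 log2 units of 129S1 counts, 34 lost 1 to 3, and 36 lost less than 1 or rose. The CAST changes of these 36 were mixed, with quartiles of 0.12 and 0.89. Prmt5, an arginine methyltransferase, had 1555 and 1200 129S1 counts in clone 21 and 3372 and 2050 in clone 12, with 2608 and 2036 CAST counts in clone 21 and 1583 and 1049 in clone 12. Its total changed by 0.02 ± 0.11, and its 129S1 share outside d3 was 69.3%. Pbrm1, a bromodomain subunit of the PBAF chromatin remodeller, changed alike, by -0.65 in 129S1 counts, 0.82 in CAST counts and 0.05 in the total. Of the 36 genes 55.6% had a near-identical copy, against 22.7% of the 321. Prmt5 and Pbrm1 had none on another chromosome. How reads without an informative variant were assigned is not given in the sources used here, and its part in these patterns was not tested.

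Chromosome 14 carries regulators whose products act on genes of other chromosomes, among them transcription factors, chromatin proteins and signalling components. Of 43 such genes in the table, 36 were tested in total counts. By edgeR 0 were called, beside 2.28% of all chromosome 14 genes tested, and 9 had an unadjusted p under 0.05. DESeq2 also called 0. In this and the following lists, DESeq2 called the same number of genes as edgeR. Their median total change was 0.02, with values from -0.82 to 0.93, against -0.01 over all genes. Read by allele, 26 of 34 fell in 129S1 counts, 23 of 33 rose in CAST counts, and 26 of 28 had a lower ratio, beside 76.2%, 53.5% and 90.6% of all chromosome 14 genes tested. Klf5, a factor of naive pluripotency, had 13 and 19 129S1 counts in clone 21 and 1412 and 2107 in clone 12. Its total was at 177 and 227 CPM in clone 21 and 181 and 355 CPM in clone 12, lower in clone 21 in both replicate pairs although the ranges overlapped (log2 change -0.36 ± 0.16, unadjusted p = 0.0422 and adjusted p = 1 in edgeR). The total of the ligand Bmp4 changed by 0.06 ± 0.16 while its ratio fell by 6.41.

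Other regulators had total changes that the test did not call. Rb1, the retinoblastoma protein that restrains E2F factors, was at 5.47 ± 1.62 CPM (SD, n = 2) in clone 21 and 8.82 ± 0.703 in clone 12 (log2 change -0.71 ± 0.23, edgeR adjusted p = 0.909). Its 129S1 share outside d3 was 60.5%. The Hippo kinase Lats2 changed by 0.26 ± 0.28. Zic2, a zinc finger factor with a 129S1 share of 16.7%, and Piwil2, a Piwi protein with 29.1%, were at 20.6 ± 4.80 and 24.4 ± 11.2 CPM in clone 21 and at 12.3 ± 9.52 and 14.1 ± 6.24 CPM in clone 12 (log2 changes 0.93 ± 0.29 and 0.79 ± 0.16, edgeR adjusted p = 0.798 and 0.0826).

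Sets of genes downstream of these regulators, all on other chromosomes, were then read. Of all genes tested on other chromosomes, 0.0255% were called in total counts. Finding 0 calls in sets this small, here and in those below, therefore does not set them apart from other genes. In E2F and Rb target genes, which drive DNA replication and the cell cycle, 0 of 23 were called in total counts and 0 had an unadjusted p under 0.05, with a median of -0.04 and values from -0.35 to 0.18. Mcm2, a subunit of the replicative helicase, was at 749 and 739 CPM in clone 21 and 777 and 710 CPM in clone 12. Of 9 BMP target genes tested, 0 were called (1 with an unadjusted p under 0.05). Their median was 0.39 with values from -0.13 to 0.76. Id1, an inhibitor of basic helix-loop-helix factors, was at 7.37 and 3.98 CPM in clone 21 and 5.70 and 1.65 CPM in clone 12, higher in clone 21 in both replicate pairs with overlapping ranges (log2 change 0.64 ± 0.32, not called). Of 9 Hippo and YAP genes, 0 were called or had an unadjusted p under 0.05 (median -0.08), and Yap1 itself was at 214 and 175 CPM in clone 21 and 208 and 169 CPM in clone 12. In 11 genes of the nuclear lamina, the structure named in the series title, 0 were called (median 0.12), and the lamin Lmnb1 changed by -0.14 ± 0.15.

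Relatives of the genes with the largest falls were not called. The neurofilament-related genes outside chromosome 14 were Nefh, Ina, Prph, Vim, Nes and Des, and their log2 changes lay between -0.71 and 0.20. Of these 6, Des had an unadjusted p under 0.05 in edgeR (-0.55 ± 0.25), and 0 were called by edgeR or DESeq2. Nefh, the heavy neurofilament subunit, was at 45.6 and 27.5 CPM in clone 21 and at 50.6 and 40.1 CPM in clone 12. Among epoxide hydrolases and related genes, Ephx1 changed by -0.10 ± 0.22 and Lta4h by 0.04 ± 0.14. Of 17 naive pluripotency genes, 0 were called in total counts (2 with an unadjusted p under 0.05, Klf2 at 0.59 and Klf5 at -0.36), with a median of 0.03.

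Summed levels of markers of other cell types differed more between replicates than between clones. Of the primed epiblast, primitive endoderm, trophoblast, 2-cell-like and fibroblast markers, 0 were called (1 trophoblast marker had an unadjusted p under 0.05). In that order 6 of 8, 6 of 10, 5 of 7, 1 of 6 and 2 of 8 markers were tested, so the 2-cell-like and fibroblast sets were barely tested. Their summed levels were 238 and 130 CPM in clone 21 and 245 and 155 CPM in clone 12 for primed epiblast, 212 and 338 against 201 and 315 CPM for primitive endoderm, and 66.7 and 94.9 against 63.4 and 99.8 CPM for trophoblast. Fibroblast markers summed to 7.62 and 16.0 CPM against 10.3 and 19.5 CPM, with Dcn and Lum at 0 in the clone libraries, and 2-cell-like markers to 2.32 and 0.173 against 2.08 and 0.275 CPM, with Zscan4c, Zscan4d and Zscan4f at 0. On chromosome 9, Tdgf1, an EGF-CFC co-receptor, had 360 and 552 CAST counts in clone 21 and 551 and 493 in clone 12. The parental libraries had 5449 and 4524. The 8 genes of a stretch around Tdgf1 summed to 685 and 1062 CPM in clone 21 and 764 and 1262 CPM in clone 12. Their sum was 1292 and 1927 CPM in the parental line. Between the clones 0 of 6 genes of the stretch were called in total counts (0 with an unadjusted p under 0.05). Their CAST changes ran from -0.315 to 1.94, with 0 called.

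Off chromosome 14, the 4 genes called in total counts were all processed pseudogenes, and each had a near-identical copy among chromosome 14 genes. Such a copy was defined as at least 150 aligned bases at 90% identity or more that cover 50% of either transcript, and 666 of the 15683 genes tested outside chromosome 14 (4.25%) had one. Of the 12275 protein-coding genes there, 0 were called by edgeR or DESeq2, and 283 had an unadjusted p under 0.05 in edgeR. The 4 pseudogenes were Gm8292 (chr1:55335401-55335796, copy of Rps24), Gm13929 (chr2:112000180-112001304, copy of Tdh), Glud-ps (chr7:125075351-125076007, copy of Glud1) and Gm6012 (chr8:57520157-57520886, copy of Rtraf). Pairs of 75-base stretches, the read length, are shown to let the likeness be seen. They come from the GENCODE M21 transcripts on GRCm38, lie in the coding part of the chromosome 14 gene, and are those with the most mismatches. Capitals mark the bases that differ within a pair.
Rps24: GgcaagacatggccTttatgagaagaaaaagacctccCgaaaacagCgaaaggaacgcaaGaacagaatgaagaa
Gm8292: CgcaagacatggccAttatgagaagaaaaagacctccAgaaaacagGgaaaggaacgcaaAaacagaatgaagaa
Tdh: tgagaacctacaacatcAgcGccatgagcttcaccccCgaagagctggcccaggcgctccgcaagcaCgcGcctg
Gm13929: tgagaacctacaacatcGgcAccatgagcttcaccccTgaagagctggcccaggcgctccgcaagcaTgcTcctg
Glud1: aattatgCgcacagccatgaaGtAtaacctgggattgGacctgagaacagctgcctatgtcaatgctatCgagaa
Glud-ps: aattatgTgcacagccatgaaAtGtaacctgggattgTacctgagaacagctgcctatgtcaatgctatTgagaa
Rtraf: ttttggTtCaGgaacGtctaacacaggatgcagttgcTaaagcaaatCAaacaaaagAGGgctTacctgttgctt
Gm6012: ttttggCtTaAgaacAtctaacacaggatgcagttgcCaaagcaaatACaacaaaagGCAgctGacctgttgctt

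The printed stretches of Gm8292, Gm13929 and Glud-ps differ from their chromosome 14 counterparts at 5 of 75 bases and that of Gm6012 at 11. Over the whole alignments, the identity was 97.2% over 396 bases for Gm8292, 97.1% over 1125 for Gm13929, 97.6% over 656 for Glud-ps and 91.4% over 730 for Gm6012. All bases were identical in 10.1%, 13.0%, 15.1% and 0% of the 75-base windows in these 4 alignments. The letters are those of the reference genome, and the 129/Sv and CAST/EiJ sequences were not used here.

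At these copies the total counts of clone 21 were lower, and in 2 of them the allelic ratio differed. Gm8292 had 1741 and 1669 129S1 counts and 615 and 319 CAST counts in clone 12, and 770 and 759 129S1 counts and 5 and 1 CAST counts in clone 21. Its total went from 158 and 182 CPM to 64.2 and 65.8 CPM (log2 change -1.38 ± 0.16, edgeR adjusted p = 0.000307). Its counterpart Rps24 was at 983 and 1015 CPM in clone 12 and 989 and 887 CPM in clone 21. Gm13929 had 133 and 131 CAST counts in clone 12 and 3 and 5 in clone 21, and 54 and 32 129S1 counts in clone 12 and 52 and 65 in clone 21. The total of Gm13929 changed by -1.38 ± 0.22 and that of its counterpart Tdh, a threonine dehydrogenase of mouse stem cells, by 0.09 ± 0.12.

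Gm6012 and Glud-ps fell as well. Gm6012 had 87 and 116 CAST counts in clone 12 and 5 and 2 in clone 21 (total log2 change -4.36 ± 0.38, edgeR adjusted p = 6.97e-06), with 3 or fewer 129S1 counts in each library. Its counterpart Rtraf, an RNA transcription and translation factor, changed by -0.10 ± 0.13. Glud-ps fell in both columns, from 315 and 230 to 157 and 121 129S1 counts and from 1994 and 1270 to 1040 and 710 CAST counts, with a total log2 change of -0.79 ± 0.13 (edgeR adjusted p = 0.0219) beside the -0.53 ± 0.12 of Glud1. Gm8292 lost its call in the fit without clone 21 replicate 2, and Gm13929 and Glud-ps lost theirs without the replicate block and when clone 21 replicate 1 or 2 or clone 12 replicate 2 was left out. Whether reads of the chromosome 14 genes were counted at these copies was not tested. By the same definition Kat6b, Klf5, Gng2, Lcp1, Nek4, Loxl2, Tpt1, Samd8 and Akap11 also have a near-identical copy on another chromosome, and their counts are uncertain to that extent.

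**Figure D5:**
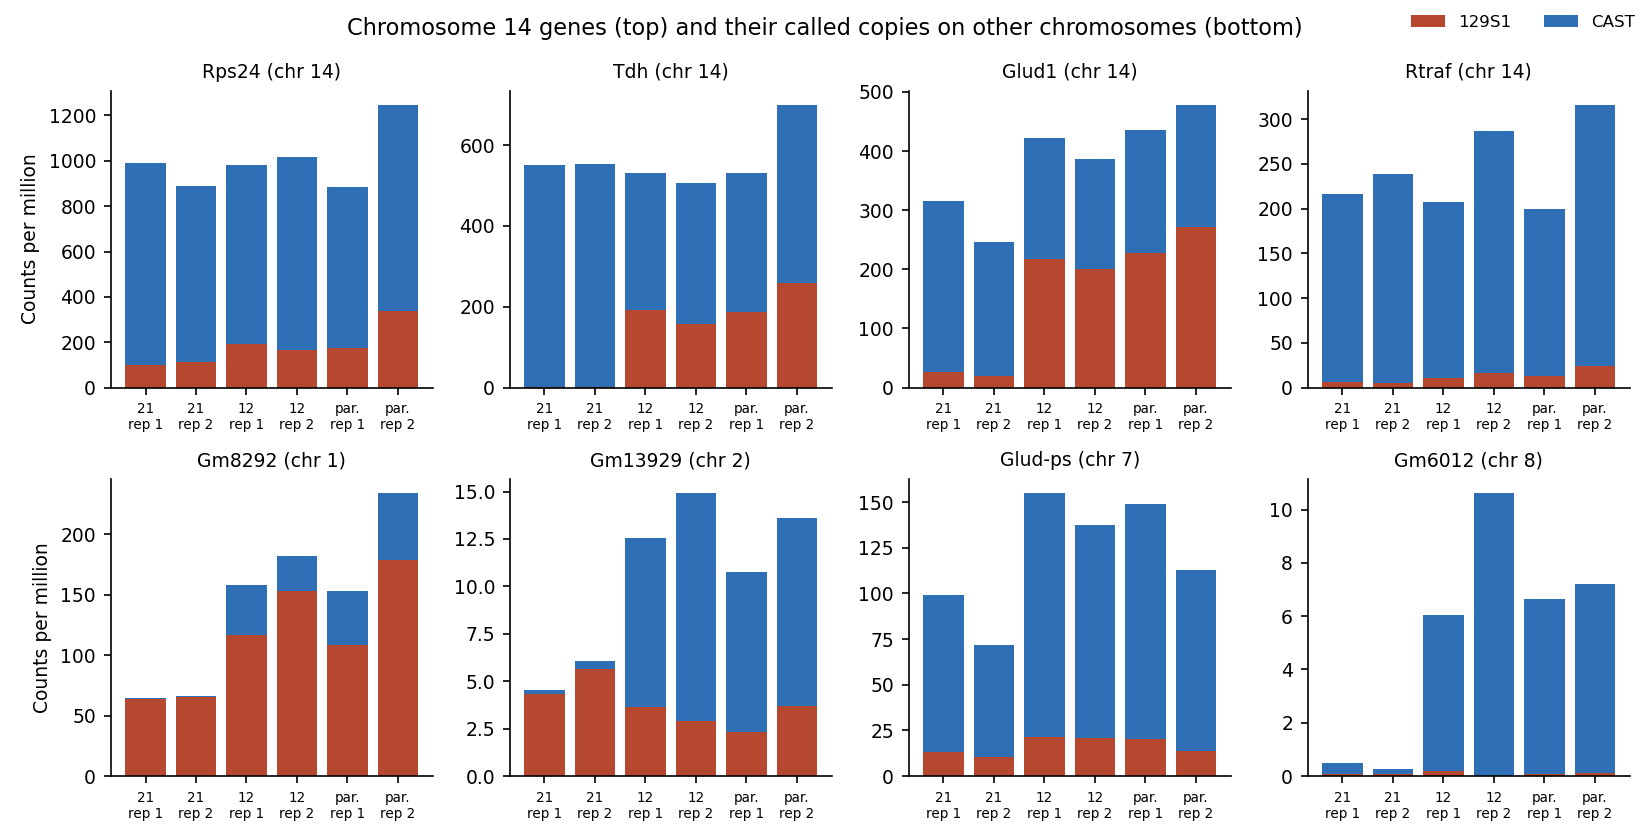
CPM from the 129S1 and CAST alleles, stacked, in the 6 d3 libraries for 4 chromosome 14 genes (top) and the called pseudogene of each on another chromosome (bottom); each panel has its own axis from 0. The pseudogenes are lower in both clone 21 libraries than in the other 4, while Rps24, Tdh and Rtraf keep their totals and Glud1 is lower.

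The allelic ratio was called in 6 genes outside chromosome 14, and 4 of these had a near-identical chromosome 14 copy. Gm8292 and Gm13929 shifted toward 129S1 (log2 changes 5.99 ± 0.80 and 5.44 ± 0.70). Gm15057 on the X chromosome, 97.9% identical over 534 bases to Akap11, which encodes an A-kinase anchoring protein, had 32 and 24 CAST counts in clone 12 and 0 and 0 in clone 21. Its 129S1 counts were 37 and 23 in clone 12 and 87 and 65 in clone 21. Gm12335 on chromosome 11, 95.5% identical over 202 bases to the opposite strand of Samd8, went the other way: it had 45 and 41 129S1 counts in clone 12 and 0 and 0 in clone 21, while CAST counts went from 31 and 35 to 59 and 78. The ratio of Gm12335 changed by -9.06 ± 0.82 and that of Samd8 by -7.40 ± 0.20.

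The other ratio calls were Adgrb2 and Fbl, with no such copy. Adgrb2, an adhesion G protein-coupled receptor on chromosome 4, had 27 and 58 129S1 counts in clone 21 and 49 and 68 in clone 12, and 31 and 50 CAST counts in clone 21 and 10 and 33 in clone 12 (log2 ratio change -1.43 ± 0.38, edgeR adjusted p = 0.0397). Fbl, the nucleolar methyltransferase fibrillarin, had 62 and 48 129S1 counts in clone 12 and 30 and 21 in clone 21, while its CAST counts were 787 and 577 in clone 12 and 610 and 566 in clone 21 (-0.90 ± 0.24, edgeR adjusted p = 0.0399). Both values lie close to the threshold.

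Over the 5 tests, 21 genes outside chromosome 14 were called at least once, of which 6 had a chromosome 14 copy, 15 had none, and 7 were protein-coding. Among those without a copy, named here after their values were seen, the 129S1 counts of the tubulin gene Tuba1a were 640 and 391 in clone 21 and 879 and 955 in clone 12 (log2 change -0.77 ± 0.20, edgeR adjusted p = 0.0457). The CAST counts of Ftl1, the ferritin light chain, were 4867 and 4277 in clone 21 and 7590 and 7759 in clone 12 (-0.64 ± 0.13, edgeR adjusted p = 0.00917), while its 129S1 counts changed by 0.10 ± 0.20 and its ratio was not called (edgeR adjusted p = 0.276). The phospholipase Plcg2 and the calcium-binding S100a11 fell in 129S1 counts by 0.61 and 0.78, and their totals were not called.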

How the data were processed

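The authors deposited read counts for 24 libraries as 1 table of 48985 genes, with a 129S1 and a CAST column per library. The submitters' processing notes name STAR, SAMtools and mm10. How reads without an informative variant were assigned, and whether counting used the strand, are not given in the sources used here. Names and positions come from GENCODE M21 (GRCm38), which 147 genes with 0.0148% of the counts did not match.

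edgeR 4.0.16 (R 4.3.3) was run on the deposited counts of all 24 libraries, with TMM scaling, filterByExpr, a coefficient per group and a block for the replicate number within each recombination. Genes were called at a Benjamini-Hochberg adjusted p under 0.05. 129S1 and CAST counts used the effective library sizes of the summed counts. The test against a doubling added 1 log2 unit as an offset for chromosome 14 genes in clone 21. The allelic ratio was tested in 1 fit of both columns, in which each library had its own coefficient and each group its own allele term, for genes with at least 10 counts per allele on average. Chromosome medians used log2 CPM with a prior of 0.5 counts. Copies were found with blastn 2.17.0. Other steps used pandas 2.3.3, matplotlib 3.10.9 and scipy 1.17.1 under Python 3.11.15.

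Libraries were paired by replicate number, and the replicate differences of the clones correlated at 0.648 over 16253 genes. The series design calls the duplicates biological. In 2 against 2 libraries a two-sided exact permutation p cannot go under 0.333, so only fits across all genes were tested. On simulated counts the blocked test recovered 71.7% of 2-fold and 97.4% of 4-fold changes in total counts, with 9 and 12 false calls. Without the block 0% and 90.3% were recovered. The simulation gave all genes the same spread and all groups of a recombination the same replicate shift, so these rates need not hold for the data. Alternatives were no replicate block, RLE scaling, other filters, the 6 or 4 d3 libraries alone, DESeq2 1.42.0, and each library left out in turn.

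The members and gene lists were chosen with earlier results of these data known. Named are all genes called in total counts, the largest called deviations of CAST counts from a doubling, the 5 smallest p of the ratio outside chromosome 14, the first and last chromosome 14 gene tested for the ratio, and list genes. Gnl3, Gnpnat1, Styx, Tpt1, Fbl, Tuba1a, Ftl1, Plcg2, S100a11, Loxl2, Neil2, Setdb2 and Rnase4 were chosen after their values were seen.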

Additional observations from a re-analysis of the deposited data

How the results depend on the processing

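Of the values compared, 84 stayed within 1.5 times or 1 SD of the reported one under an alternative and 78 did not. Among single named genes 477 values kept their call or side and 90 lost it, and 0 reversed. Counts of calls are given as all genes, chromosome 14 and other chromosomes, in that order. For total counts (reported 17, 13 and 4) they were 8, 6 and 2 without the replicate block and also with DESeq2 without the block, 69, 29 and 40 with no low-count filter, 5, 4 and 1 with the 6 d3 libraries, and 48, 30 and 18 with the 4 clone libraries. With 1 library left out they ran from 6 to 160, 5 to 21 and 1 to 139. For 129S1 counts the calls off chromosome 14 (reported 11) were 2 without the replicate block, 48 with no filter, 3 with 6 libraries and 54 with 4. With 1 library left out all calls ran from 345 to 648, those on chromosome 14 from 341 to 367 and those elsewhere from 2 to 281.

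For CAST counts (reported 273, 261 and 12) the calls were 58, 54 and 4 without the replicate block and 3, 0 and 3 with 6 libraries. Those elsewhere were 48 with no filter and 69 with 4 libraries. Leaving out 1 library gave 128 to 372, 124 to 187 and 4 to 189. Against a doubling (reported 36, 30 and 6) the calls were 8, 5 and 3 without the replicate block, 3, 0 and 3 with 6 libraries, and 96, 50 and 46 with 4. With no filter they were 82 in all and 37 elsewhere. Leaving out 1 library gave 3 to 150, 0 to 28 and 3 to 122. The allelic ratio off chromosome 14 (reported 6) had 14 calls with a replicate block on the ratio, and 4 to 99 with 1 library left out. In every test the highest number of calls elsewhere came without clone 12 replicate 1, and the cause was not tested. A clone left with 1 library was assumed to vary like the other groups.

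The chromosome 14 median was 0.0069 for total counts with at least 50 counts on average. For 129S1 counts it was -5.26 with 129S1 shares of 30 to 70% and -5.83 with at least 50 counts. The correlation of total change with CAST share (reported 0.307) was 0.293 with a prior of 5 counts, 0.274 with at least 50 counts, and 0.281 and 0.283 in the replicate pairs alone. With 2 libraries per clone and 1 clone on each side, a difference of the clones and a difference of their culture history cannot be told apart.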
